A study of Mus musculus with 6 samples.

Results

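The mouse mitochondrial genome carries 37 genes, and all 37 were taken as entries of the deposited gene table whose symbol begins with mt-. They comprise 2 ribosomal RNA genes, 13 protein genes and 22 transfer RNA genes, out of 55573 genes in the table. The 6 libraries are bulk RNA sequencing of LSK cells, a bone marrow fraction sorted as Lineage- Sca-1+ cKit+ that holds stem cells and multipotent progenitors, from C57BL/6J mice aged 3 months. There were 3 wild-type libraries (Etv6+/+) and 3 Etv6R355X/+ libraries, carrying the R355X allele on 1 copy of Etv6, which encodes an ETS-family repressor of transcription. The genotype label of these 3 reads Etv6+/-, while the series text names the allele. Cells were enriched with c-Kit beads before the sort. Total RNA was copied by single-primer isothermal amplification, which does not select RNA with a poly(A) tail, and no step of the protocol marks the strand.

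Library totals ran from 45.2 M to 92.2 M expected counts (M, 1e6), with the highest in mutant replicate 1. All 8 LSK and stem cell markers checked were present, with Kit at 351 to 451 CPM and Ly6a, which encodes Sca-1, at 71.7 to 93.5 CPM (CPM, counts scaled to library size by TMM). Etv6 measured 454, 419 and 400 CPM in the wild-type replicates 1, 2 and 3, against 305, 341 and 386 CPM in the mutant replicates. The genotypes did not overlap, with the mutant lower. The log2 fold change was -0.30 (SE 0.086, adjusted p = 0.245 by edgeR's quasi-likelihood test, adjusted by Benjamini-Hochberg), short of the 0.05 threshold. The labels do not say that replicates came from separate animals, so p-values rest on the spread among these libraries alone, and that spread may be technical.

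Mitochondrial DNA is a circle that is transcribed from both strands into long precursors. In most places tRNAs sit between the other genes, and cutting them out releases the rRNAs and the mRNAs. The 12S and 16S rRNAs (mt-Rnr1 and mt-Rnr2) build the mitochondrial ribosome, which translates only the protein genes of this genome. Those proteins are core subunits of respiratory complexes I, III and IV and of ATP synthase, complex V, and they assemble with many subunits imported from the cytosol. Stem cells at rest are known for drawing more on glycolysis than their dividing progeny.

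Copies of mitochondrial DNA also lie in the nuclear genome, and a block of them decides how several members can be read. Every mitochondrial gene was aligned to all annotated transcripts of GENCODE M21 (build mm10/GRCm38, the build of the counts). On chromosome 1, chr1:24611535-24616197 on the minus strand (4663 bases) holds 7 annotated unprocessed pseudogenes that are at least 99% identical to mitochondrial genes over at least 90% of their own length. Gm28661 matched mt-Co2 (chrM:7013-7696) over 681 of its 684 bases without a mismatch. The ends of both are shown because they are the part where they differ, with the 3 bases that the pseudogene lacks in capitals.
mt-Co2: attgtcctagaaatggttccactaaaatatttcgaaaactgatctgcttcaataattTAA
Gm28661: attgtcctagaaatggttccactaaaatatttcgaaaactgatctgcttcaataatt

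Gm28438 differs from mt-Nd3 (chrM:9459-9806) by a single base within 345 aligned bases, T3C, counted from the first base of mt-Nd3. The first 60 bases of both follow, with that base in capitals.
mt-Nd3: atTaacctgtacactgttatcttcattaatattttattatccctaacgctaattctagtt
Gm28438: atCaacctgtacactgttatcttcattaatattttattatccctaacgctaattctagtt
Gm10925 (mt-Atp6, 678 bases), Gm28437 (mt-Co3, 783 bases), Gm10222 (mt-Nd4l, 294 bases) and Gm28439 (the first 876 bases of mt-Nd4) had no mismatch. Gm29216 matched the last 483 bases of mt-Co1 with 1 substitution, A1066T, counted from the first base of mt-Co1.

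The counts of these pairs went to the mitochondrial entry for some genes and to the nuclear entry for others. The entry of mt-Co2, a catalytic-core subunit of cytochrome c oxidase, held 1, 251 and 0 counts across the wild-type libraries, against 194, 1 and 2 across the mutant ones. Its nuclear copy Gm28661 held 74402, 57726 and 61218 counts in wild type and 115936, 62232 and 55394 in the mutant. Thus the mt-Co2 entry was near 0 in every library, and 99.6% to 100% of the counts of the pair stood under the copy. The same was seen for mt-Atp6, a subunit of the proton channel of ATP synthase, where Gm10925 held 99.6% to 100.0% of the pair, and for the cytochrome oxidase subunit mt-Co3, where Gm28437 held 99.7% to 100.0%.

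The other pairs divided differently. For the complex I subunit mt-Nd3, Gm28438 held between 48.5% and 50.3% of the pair, an even division in all 6 libraries. For mt-Nd4l and mt-Nd4, also subunits of complex I, Gm10222 held at most 0.333% and Gm28439 at most 0.0783%, so these 2 genes kept nearly all of their counts. Gm29216 covers 31.3% of the length of mt-Co1 and held 28.8% to 31.3% of the counts of that pair. Identical sequence gives reads that cannot be assigned to either locus, so over the shared sequence the level of each pair is known only as a sum. Whether any of these reads came from the nuclear locus was not tested.

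**Figure D1:**
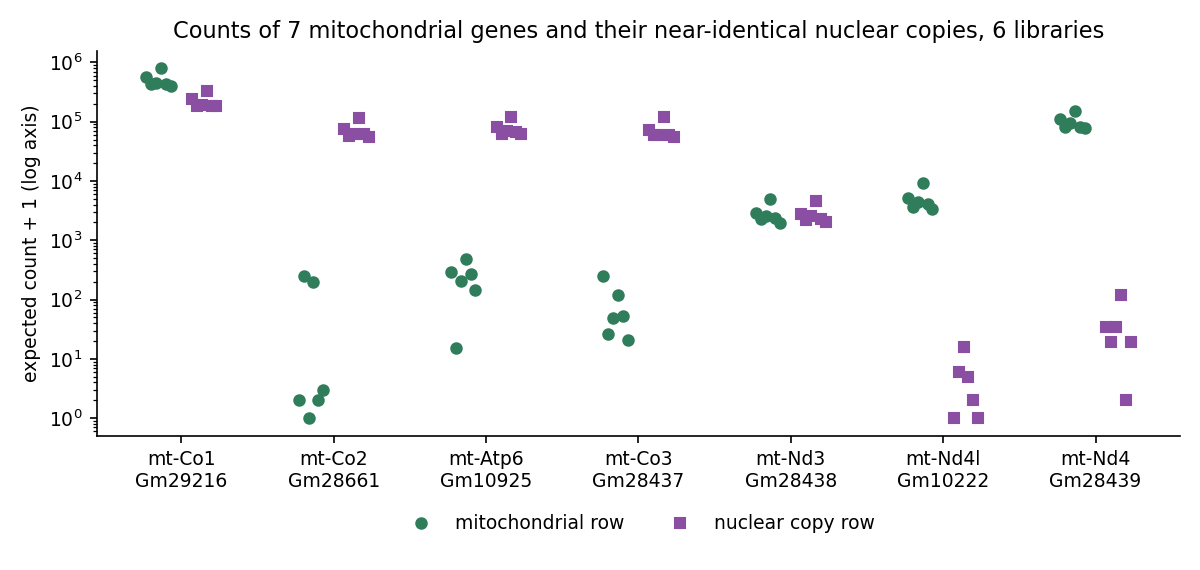
Expected counts (plus 1, log axis) of 7 mitochondrial genes (circles) and of their near-identical nuclear copies (squares), 1 symbol per library. The mitochondrial entries of mt-Co2, mt-Atp6 and mt-Co3 sit between 0 and 485 counts while the lowest copy value is 54960, and the mt-Nd4l and mt-Nd4 pairs are the other way round.

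The rRNA genes made up most of the mitochondrial counts. All 37 genes together took 20.41%, 19.97% and 20.14% of the counts of wild-type replicates 1, 2 and 3, against 21.0%, 20.2% and 21.4% of mutant replicates 1, 2 and 3. The rRNA genes alone took 18.6% ± 0.200 in wild type and 19.4% ± 0.536 in the mutant (SD, n = 3). The 13 protein genes took 1.61% ± 0.0549 and 1.4996% ± 0.0411, and 2.39% ± 0.0713 and 2.26% ± 0.0598 once the 7 near-identical copies were added. With nuclear rRNA left out of the total, the protein shares as listed were 1.75%, 1.66% and 1.78% in wild type and 1.67%, 1.55% and 1.64% in the mutant, which overlap. The 22 tRNA genes held 31 to 136 counts per library in all. In bulk samples, fewer cells of a type and less RNA per cell cannot be told apart.

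mt-Rnr2 (16S rRNA, chrM:1094-2675) measured 128839, 125632 and 127285 CPM across wild-type libraries, against 139721, 128200 and 139087 CPM across mutant libraries. Mutant replicates 1 and 3 were the highest, and mutant replicate 2 lay within the wild-type range. Its log2 fold change was 0.092 (SE 0.075), with an adjusted p of 0.713 in edgeR's quasi-likelihood test. mt-Rnr1 (12S rRNA, chrM:70-1024) measured 57391, 54822 and 56275 CPM across wild-type libraries, against 65862, 55846 and 60550 CPM across mutant libraries. Again mutant replicate 2 lay among the wild-type values (log2 fold change 0.11, SE 0.080, adjusted p = 0.663 in the same edgeR test). Per length, the 16S level was 1.36, 1.38 and 1.37 times the 12S level in wild type and 1.28, 1.39 and 1.39 times in the mutant, with mutant replicate 1 alone apart.

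Levels of the protein genes spanned a wide range when set per length and with the near-identical copies added. mt-Co1, the catalytic subunit of cytochrome c oxidase, was highest at 7628 to 8520 CPM per kb over the 6 libraries. The next was mt-Atp6 at 1891 to 2076 CPM per kb, then mt-Co2 at 1736 to 1942, mt-Cytb at 1550 to 1817 and mt-Co3 at 1443 to 1721. mt-Cytb encodes the cytochrome b of complex III. Ranges of neighbours overlapped from mt-Atp6 down to mt-Co3, although mt-Atp6 stood above mt-Co2, and mt-Co2 above mt-Cytb, within each of the 6 libraries.

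Among the complex I genes mt-Nd4 led at 1145 to 1405 CPM per kb, followed by mt-Nd1 at 930 to 1213 and mt-Nd5 at 721 to 886. mt-Nd4l, mt-Nd6, mt-Nd3 and mt-Nd2 formed a low group with overlapping ranges, from 211 CPM per kb for the lowest mt-Nd2 value to 356 for the highest mt-Nd4l value. Of these, mt-Nd4l and mt-Nd3 are short, at 297 and 348 bases. Levels were divided by annotated length, not by RSEM's effective length, and how far this lowers short genes was not tested. mt-Nd6 is the only protein gene read from the other strand, and it overlaps mt-Nd5 at its end, so these unstranded counts cannot tell its mRNA from precursor of the opposite strand. mt-Nd4l and mt-Nd4 also overlap, as do mt-Atp8 and mt-Atp6. mt-Atp8 (chrM:7766-7969), the small subunit of ATP synthase, held 20 counts in mutant replicate 3 and 0 in the other 5 libraries. At 204 bases it is the shortest protein gene, and the nuclear block leaves 233 bases without an annotated gene between Gm10925 and Gm28661. Whether either bears on its counts was not tested.

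**Figure D2:**
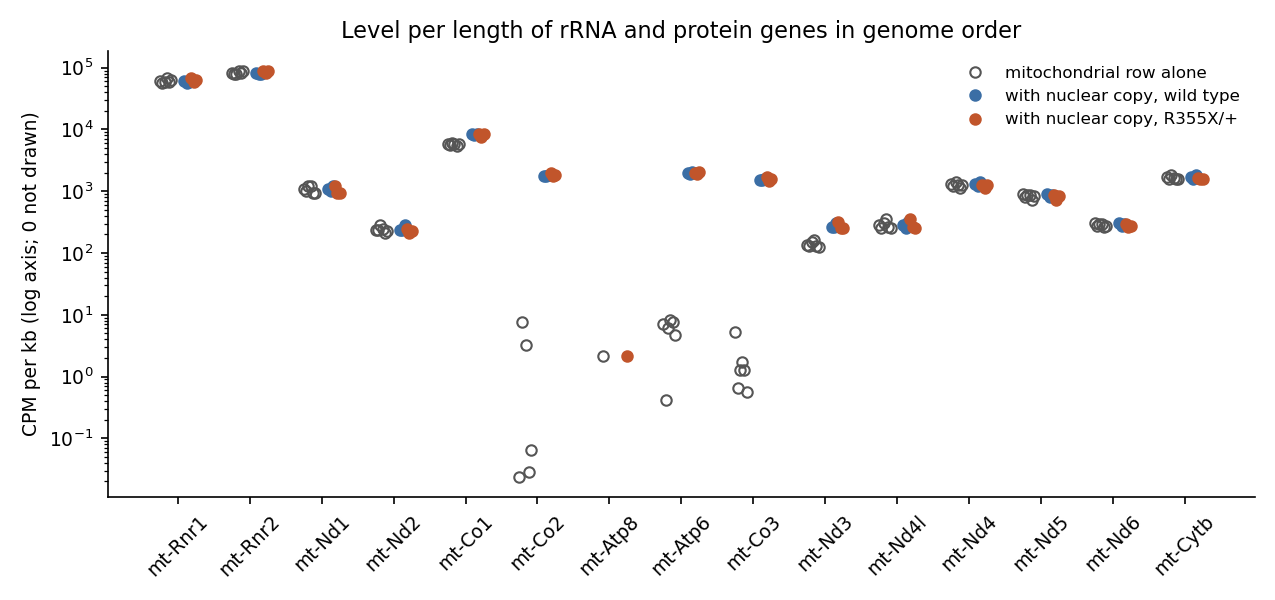
Level per length (CPM per kb, log axis) of the rRNA and protein genes in genome order, for the mitochondrial entry alone (open circles) and with its near-identical nuclear copy added (filled, by genotype), 1 symbol per library, with values of 0 not drawn. With copies added, mt-Co1 lies at 7628 to 8520 CPM per kb, and mt-Co2, mt-Atp6 and mt-Co3 move from below 10 to the level of mt-Cytb.

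The weights of the respiratory complexes depend on the same pairs. As listed, the ATP synthase genes summed to 0.287 to 5.55 CPM, and with the copies to 1288 to 1414 CPM. Complex IV went from 8192 to 9164 CPM as listed to between 14111 and 15637 CPM with the copies. The 7 complex I genes barely moved, from 4261 to 5264 CPM as listed to between 4304 and 5318 CPM. mt-Co1 alone made up 53.8% to 55.5% of all protein-gene counts with copies, against 7.87% to 8.503% for mt-Cytb and 7.24% to 7.92% for mt-Nd4.

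The genotype comparison asks which transcripts differ in level between Etv6R355X/+ and wild-type LSK cells. Of the 37 genes, 15 passed the filter on low counts and were tested, namely both rRNA genes, 11 protein genes and 2 tRNA genes. None was called by edgeR's quasi-likelihood test at an adjusted p of 0.05, where 0.266% of the 20646 genes tested were called. An unadjusted p under 0.05 was reached by 0 of the 15, against 10.6% of all genes, and DESeq2 and limma-voom also called 0. The genotypes overlapped for all 15, whereas 16.3% of all tested genes had genotypes that did not overlap.

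Of the 11 tested protein genes, 9 had a log2 fold change below 0, with a median of -0.090 against 0.0019 for all tested genes, and both rRNA genes were above 0. The protein median moved to -0.051 without wild-type replicate 1, -0.055 without wild-type replicate 3 and -0.048 without mutant replicate 2, and the rRNA median from 0.10 to 0.061 without mutant replicate 1. The smallest p belonged to mt-Nd2, a membrane subunit of complex I (chrM:3914-4951). It measured 249, 241 and 298 CPM across wild-type libraries, against 249, 219 and 236 CPM across mutant libraries. Wild-type replicate 3 stood above the rest, and mutant replicate 1 reached the wild-type values. Its log2 fold change was -0.16 (SE 0.085, 95% interval -0.35 to 0.027, adjusted p = 0.548 in edgeR's test).

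mt-Nd1 measured 1054, 975 and 1152 CPM across wild-type libraries, against 1161, 892 and 890 CPM across mutant libraries. Mutant replicate 1 was thus the highest of all 6 and the other mutant libraries the lowest (log2 fold change -0.11, SE 0.11). mt-Cytb measured 1935, 1834 and 2079 CPM across wild-type libraries, against 1879, 1773 and 1834 CPM across mutant libraries (log2 fold change -0.092, SE 0.066), and mutant replicate 1 lay within the wild-type range. mt-Co1 as listed measured 9133, 8778 and 9163 CPM against 9120, 8191 and 8882 CPM, with genotypes that overlapped (log2 fold change -0.048, SE 0.068). The remaining complex I genes had log2 fold changes of -0.11 for mt-Nd4, -0.075 for mt-Nd5, -0.090 for mt-Nd6, -0.0074 for mt-Nd3 and 0.045 for mt-Nd4l.

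Adding each near-identical copy to its gene made mt-Co2, mt-Atp6 and mt-Co3 measurable, a setting chosen after seeing the data. mt-Co2 then measured 1214, 1187 and 1256 CPM across wild-type libraries, against 1328, 1194 and 1234 CPM across mutant libraries. mt-Atp6 measured 1350, 1288 and 1413 CPM against 1366, 1309 and 1389 CPM, and mt-Co3 1199, 1208 and 1217 CPM against 1349, 1131 and 1225 CPM. The genotypes overlapped for all 3 genes. Their log2 fold changes were 0.039 (95% interval -0.10 to 0.18), 0.0051 (-0.13 to 0.14) and 0.033 (-0.12 to 0.19). As listed, on a few counts, mt-Atp6 had read 0.59 (SE 0.63) and mt-Co3 -0.98 (SE 0.65). With the copies added, 4 of 12 tested protein genes were above 0 and 8 below, with values from -0.16 to 0.043, and none was called.

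**Figure D3:**
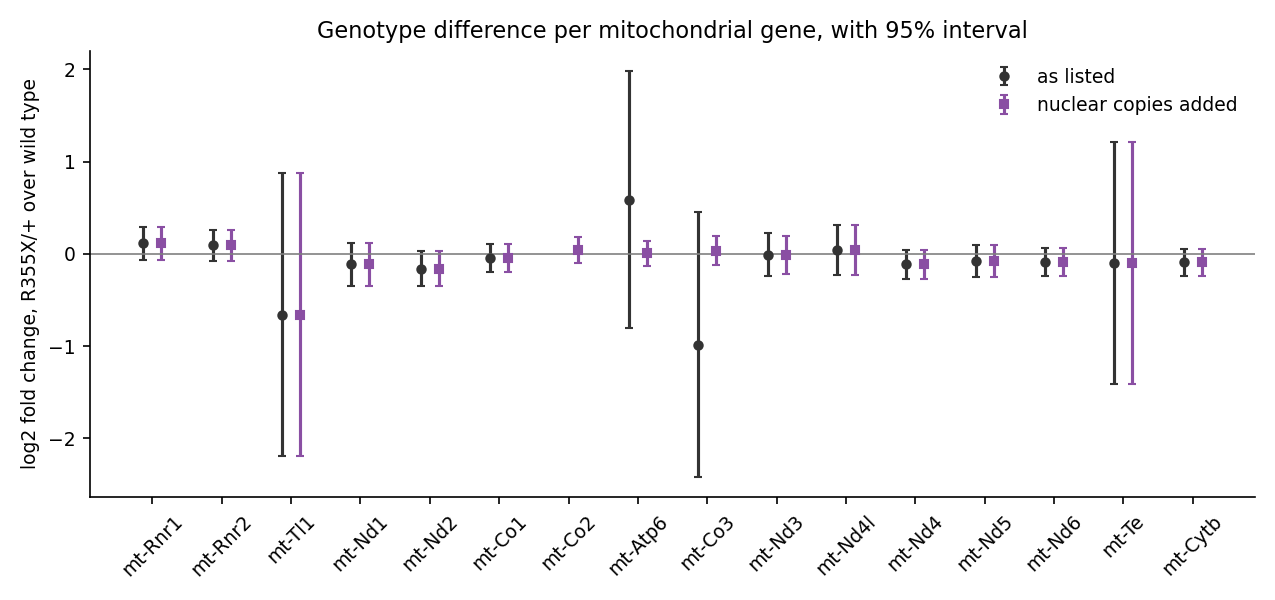
Log2 fold change of R355X/+ over wild type for each tested mitochondrial gene in genome order, with its 95% interval from the edgeR fit, as listed (circles) and with near-identical nuclear copies added (squares). Every interval includes 0, and the wide ones belong to mt-Tl1, mt-Te and the near-empty entries of mt-Atp6 and mt-Co3.

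Libraries differed from each other in the level of the protein genes as a group. Among 9 protein genes (all those tested but mt-Atp6 and mt-Co3), wild-type replicate 3 was highest or second in 8 and mutant replicate 2 lowest or second lowest in 8. Mutant replicate 1 was highest or second in 5 and never among the 2 lowest. The within-genotype SD of log2 CPM had a median of 0.11 for these 9 genes and 0.069 for the rRNA genes. For all tested genes averaging at least 100 CPM the median was 0.074.

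The ratio of rRNA to protein-gene counts was higher in every mutant library than in every wild-type library. There were 11.6, 11.8 and 11.1 rRNA counts per protein-gene count in wild type and 12.8, 12.9 and 13.003 in the mutant. With the copies added the ratio was 7.83, 7.94 and 7.51 against 8.63, 8.56 and 8.57. The genotypes did not overlap in either form, and the 3 mutant libraries lay close together. The ratio was computed over members after their values were known and is given as a description. 3 against 3 could not reach an exact permutation p under 0.1.

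With the copies added, a setting chosen after seeing the data, protein genes were set against the rRNA counts of the same library. The mean of all 12 protein genes other than mt-Atp8 was lower in the mutant, at 83.5% to 95.9% of wild type. Genes at large also moved down under such scaling. Scaled to the mitochondrial total, the median log2 fold change of all tested genes was -0.082, against 0.0019 with the TMM scaling. A lower value on this scale is thus not particular to mitochondrial genes. In 8 of the 12 the genotypes did not overlap, while mt-Nd1, mt-Co3, mt-Nd3 and mt-Nd4l overlapped. The 8 include mt-Co2 and mt-Atp6, whose own entries were near-empty without the copies. On the same scale, but with each gene as listed, 14.9% of all 20646 tested genes were lower in the mutant without overlap. In either direction, 18.8% of them did not overlap. All 12 share 1 denominator per library, so they are not separate observations. mt-Cytb, for example, had 10.4, 10.2 and 11.3 counts per 1000 rRNA counts in wild type and 9.14, 9.63 and 9.18 in the mutant. mt-Nd1 measured 5.66, 5.40 and 6.28 against 5.65, 4.85 and 4.46 counts per 1000 rRNA counts. The fits over all genes that come nearest to this ratio called no mitochondrial gene. Scaled to the mitochondrial total, mt-Nd2, mt-Nd4, mt-Nd6 and mt-Cytb had an unadjusted p under 0.05 in edgeR's test. With that scaling 72 of all tested genes were called, against 55 with the TMM scaling. The share of all genes with such an unadjusted p is not given for it, so these 4 have no background to be set against. In that fit the smallest edgeR p of a member was 0.0142 and the smallest adjusted p 0.319. Scaled to the total of mitochondrial protein genes, mt-Rnr1 had a log2 fold change of 0.18 (unadjusted p = 0.0815, adjusted p = 0.572 by edgeR's test). That of mt-Rnr2 was 0.16 (adjusted p = 0.638 by edgeR's test). Under that scaling the median of all tested genes was 0.072, and 96 of the 110 genes called were higher in the mutant.

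Other features of the libraries varied beside this ratio. Entries annotated as nuclear rRNA took 6.45% to 7.08% of wild-type counts and 8.61%, 6.30% and 7.19% of mutant replicates 1, 2 and 3. The lncRNA gene AY036118 took 0.247% to 0.322% in wild type and 1.26%, 0.431% and 0.253% in the mutant. Summed markers of B cells ran from 88.9 to 114 CPM across wild-type libraries, against 123 to 265 CPM across mutant libraries, and all 7 had log2 fold changes above 0. Of them 0 were called by edgeR, against 0.266% of all genes, and 6 had an unadjusted p under 0.05 in the higher direction, against 5.83% of all genes. Mast cell and basophil markers summed to 32.1 to 35.3 and 39.0 to 59.6 CPM, where all 5 tested of 7 were above 0, 4 had an unadjusted p under 0.05 and 1 was called. Erythroid markers summed to 55.3 to 92.5 and 116 to 225 CPM, with 6 of 8 above 0, a median log2 fold change of 0.059 and 2 called. The 2 were the beta-globin genes Hbb-bt (18.1 and 78.5 CPM in mean) and Hbb-bs (29.5 and 70.4 CPM), and the other 6 markers summed to 15.97 to 41.1 and 13.1 to 34.3 CPM. T and NK cell markers summed to 94.3 to 125 and 111 to 145 CPM (1 of 6 called, the only one with an unadjusted p under 0.05). Macrophage and dendritic cell markers summed to 56.2 to 68.2 and 63.6 to 93.0 CPM, with 0 of 7 called and, at an unadjusted p under 0.05, 5 higher and 1 lower. Neutrophil markers summed to 5435 to 8111 and 4201 to 5899 CPM, and megakaryocyte markers to 50.9 to 83.0 and 50.4 to 75.2 CPM, with 0 called in both and, at an unadjusted p under 0.05, 1 neutrophil marker lower and 1 megakaryocyte marker higher. Of the 8 LSK and stem cell markers 7 were below 0 (median -0.12) and 0 were called. The stem cell marker Procr measured 21.9 ± 2.01 and 16.3 ± 0.796 CPM without overlap (log2 fold change -0.43, unadjusted p = 0.00166, adjusted p = 0.169 in edgeR's test). No marker of these lists was at 0 in all libraries. The part of these cells and of the other features in the ratio was not tested.

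**Figure D4:**
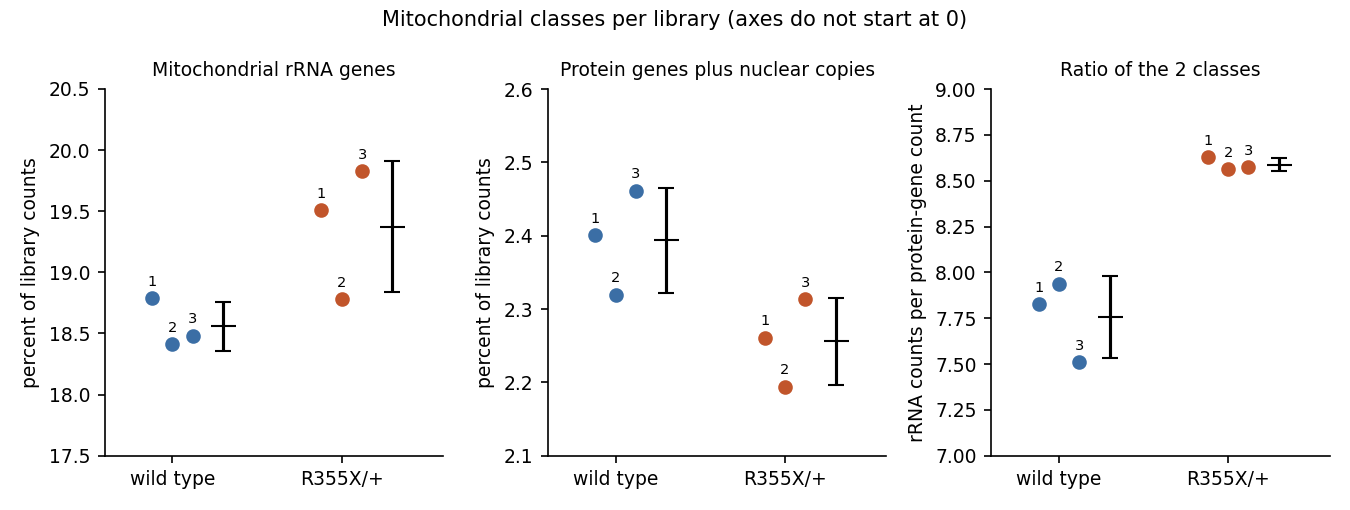
Share of library counts in the 2 rRNA genes, share in the protein genes with near-identical copies, and the ratio of these classes, per library (numbered by replicate) with mean and SD beside them. Axes do not start at 0. The genotypes overlap for the rRNA share. They lie apart by a narrow gap for the protein share (2.319% to 2.461% against 2.194% to 2.313%). The gap is wider for the ratio (7.51 to 7.94 against 8.56 to 8.63). The protein share depends on the total: without nuclear rRNA in it, shares as listed overlapped (1.66% to 1.78% against 1.55% to 1.67%).

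The tRNA genes were hardly counted. They are 59 to 75 bases long, shorter than the target fragment size of these libraries. The 2 with the most counts are shown whole to give their scale. mt-Te carries glutamate and lies on the strand opposite to most genes, and mt-Tl1 is a leucine tRNA that follows the 16S gene.
mt-Te: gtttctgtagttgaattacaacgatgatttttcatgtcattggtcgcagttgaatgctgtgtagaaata
mt-Tl1: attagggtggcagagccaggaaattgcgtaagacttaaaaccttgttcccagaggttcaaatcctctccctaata

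mt-Te held 25, 8 and 25 counts in wild type and 28, 29 and 6 in the mutant, and mt-Tl1 18, 9 and 21 counts against 27, 11 and 1. Mutant replicate 3 was lowest for both, and the genotypes overlapped. Their log2 fold changes of -0.096 (SE 0.59) and -0.66 (SE 0.69) had 95% intervals of -1.41 to 1.22 and -2.19 to 0.87. The other 20 tRNA genes were not tested and held at most 15 counts in any library. Of these, mt-Ty, mt-Td, mt-Tk and mt-Tg were at 0 in all 6, which allows up to 3 counts, or 0.0326 to 0.0664 CPM depending on the library. Such limits cover counting error only, and amplified reads are not independent molecules.

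Nuclear genes that maintain, transcribe and process mitochondrial DNA and RNA held no called gene either. Over 5 lists, 94 genes were tested, of which 68 were below 0 and 26 above, with a median log2 fold change of -0.051 (-0.032 without wild-type replicate 3). None passed edgeR's quasi-likelihood test or was called by DESeq2 or limma-voom. Only Cars2, the mitochondrial cysteinyl-tRNA synthetase, had an unadjusted p under 0.05, at 35.2 ± 0.968 CPM across wild-type libraries, against 29.5 ± 1.12 CPM across mutant libraries (SD, n = 3; adjusted p = 0.261). That is 1.06% of the 94, against 10.6% of all genes in either direction and 4.8% in the lower direction. The genotypes did not overlap for 5 of the 94 (5.32%), against 16.3% of all tested genes.

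The transcription list (8 tested) had a median of -0.015. Polrmt, the mitochondrial RNA polymerase, measured 13.6, 14.1 and 14.6 CPM across wild-type libraries, against 13.3, 12.9 and 13.8 CPM across mutant libraries. Tfam, which packages mitochondrial DNA and starts transcription, measured 56.0, 60.2 and 59.6 CPM against 55.8, 58.3 and 58.9 CPM. Both overlapped between the genotypes. The termination factor gene Mterf1a measured 7.25 ± 0.238 and 7.90 ± 0.351 CPM (adjusted p = 0.787 in edgeR's test), with genotypes that did not overlap. The elongation factor gene Tefm measured 12.02 ± 1.08 and 12.8 ± 0.783 CPM.

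RNA processing and stability genes were below 0 in 17 of 22 (median -0.068). Lrpprc, which stabilizes mitochondrial mRNAs, measured 89.0 ± 9.61 and 80.4 ± 3.96 CPM. Fastkd2, an RNA-binding protein needed for the 16S rRNA, measured 21.4 ± 0.595 and 18.9 ± 0.719 CPM with genotypes that did not overlap (adjusted p = 0.531 in edgeR's test). Genes of RNA modification and ribosome assembly were below 0 in 20 of 27 (median -0.069). The rRNA methyltransferase gene Nsun4 measured 15.3 ± 1.07 and 13.7 ± 0.661 CPM, and Mterf4, its partner, 12.2 ± 1.02 and 10.7 ± 1.01 CPM. Genes of mitochondrial DNA maintenance were below 0 in 11 of 15 (median -0.036), with the helicase gene Twnk at 21.8 ± 0.848 and 20.4 ± 0.124 CPM (not overlapping, adjusted p = 0.747 in edgeR's test). Of the synthetases, 15 of 22 were below 0 (median -0.047). Lars2, for leucine, measured 1606 ± 119 and 1868 ± 315 CPM and made up most of the list's sum of 2061 to 2736 CPM per library. It was highest in mutant replicate 1, at 2184 CPM, and the genotypes overlapped. The next highest of the list, Kars, averaged 71.7 and 69.6 CPM. Why Lars2 stood so far above the other synthetases was not tested.

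Nuclear subunits of the same respiratory complexes were mostly above 0. Of 71 tested, 62 were above 0 and 9 below, with a median of 0.12, and 0 passed edgeR's quasi-likelihood test, DESeq2 or limma-voom. An unadjusted p under 0.05 was found for 9, all higher, which is 12.7%, against 10.6% of all genes in either direction and 5.83% in the higher direction. Without mutant replicate 1, 42 were above 0 and 29 below, with a median of 0.018 and 2 at an unadjusted p under 0.05. With wild-type replicate 3 left out as well, 63 were above 0 and 8 below (median 0.076). The median was 0.070 without wild-type replicate 1 and 0.19 without wild-type replicate 3. Medians were 0.11 for complex I (36 genes), 0.086 for complex III (9), 0.17 for complex IV (11) and 0.12 for complex V (15). Beside mt-Co1, mt-Co2 and mt-Co3, the nuclear cytochrome oxidase gene Cox7c measured 88.1 ± 3.00 and 102 ± 10.1 CPM, and Cox6c 54.5 ± 2.93 and 63.2 ± 8.33 CPM. Beside the complex I members, Ndufb11 measured 49.9 ± 3.57 and 58.9 ± 5.32 CPM, and these 3 genes did not overlap between the genotypes. In all 11 of the 71 did not overlap, which is 15.5%, against 16.3% of all tested genes in either direction. All 11 were higher in the mutant, where 1744 of the 20646 tested genes were higher without overlap. Cox6c, for example, stood at 72.8 CPM in mutant replicate 1 and at 58.9 and 57.9 CPM in the other mutant libraries, and its log2 fold change went from 0.22 to 0.10 without the first. Atp5b, the catalytic subunit of ATP synthase, lay on the lower side at 883 ± 80.0 and 794 ± 54.0 CPM. The difference in direction between mitochondrial and nuclear subunits was not tested.

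**Figure D5:**
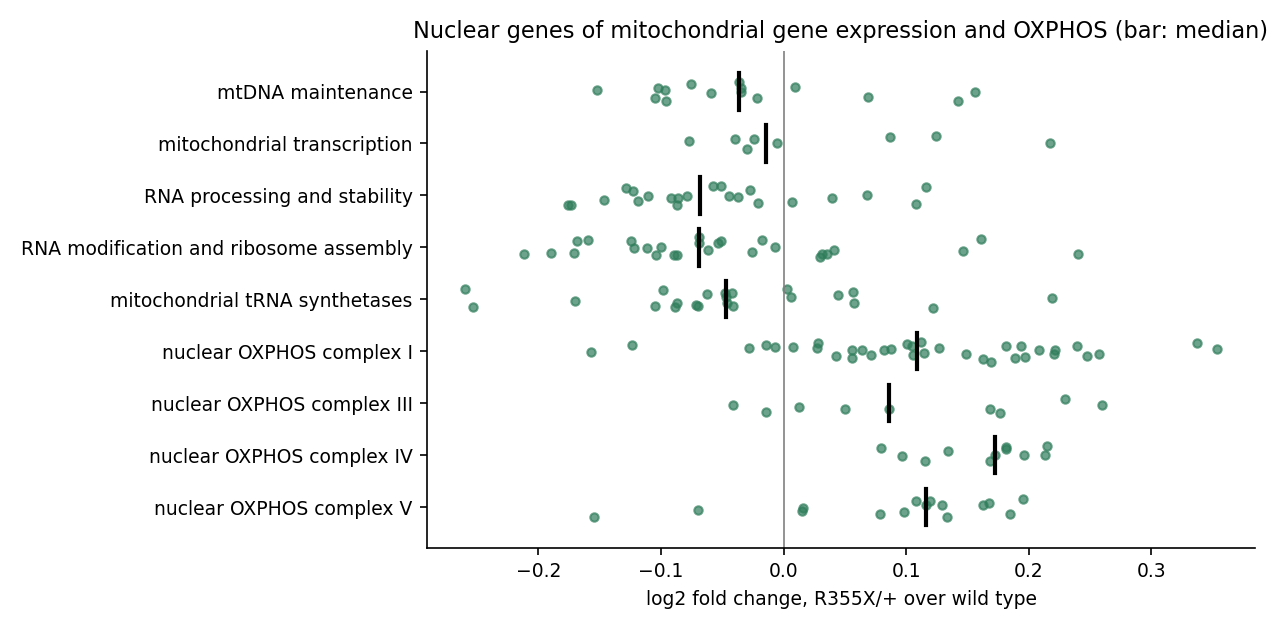
Log2 fold change of R355X/+ over wild type for each tested gene (circles, spread vertically at random) of 9 nuclear lists, with the list median as a bar. The 5 lists of mitochondrial gene expression have medians from -0.069 to -0.015, and the 4 lists of respiratory subunits from 0.086 to 0.17.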

How the data were processed

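The authors deposited RSEM expected counts per gene, unscaled, with 1 column per library; the columns are named per the file headers. The submitters' processing notes name build mm10 with the tools Trim Galore (0.60), STAR (2.7) and RSEM (1.31); the annotation release and the RSEM options were not given in the sources used here. The 92 spike-in entries, all at 0, were left out. The rounded table was filtered with filterByExpr (minimum count 10), scaled by TMM and tested in R 4.3.3 by the two-sided quasi-likelihood test of edgeR 4.0.16 with genotype as the only term and Benjamini-Hochberg adjustment over 20646 genes. Standard errors and 95% intervals come from the F statistic. CPM uses TMM-scaled library sizes, and CPM per kb divides by annotated gene length, not by RSEM's effective length. Mitochondrial genes were aligned with BLAST 2.17.0 to GENCODE M21 transcripts, keeping matches of at least 100 bases and 85% identity; all 37 matched the annotation by identifier. Replicates differed by more than sampling noise (chi-square per gene 11.3 to 48.6). The scripts were tested on simulated data.

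Members and lists were chosen with earlier results of these data known. Named genes are all rRNA and protein members, tRNA genes that passed the filter, Etv6, Kit, Ly6a, Tfam, Polrmt, up to 4 members of each nuclear list with the smallest adjusted p, and nuclear copies averaging at least 10 CPM. AY036118, Procr, the beta-globin genes, the tRNA genes at 0 and the copies under 10 CPM were named after their values were seen. Alternatives were DESeq2 1.42.0, limma-voom 3.58.1, other scalings and filters, a replicate block, and leaving out libraries.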

Additional observations from a re-analysis of the deposited data

How the results depend on the processing

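None of the 20 alternatives called a mitochondrial gene, and the smallest adjusted p of any member was 0.175, without the low-count filter. Unadjusted p under 0.05 appeared for mt-Rnr1 and mt-Rnr2 with limma-voom, for mt-Nd2, mt-Nd4, mt-Nd6 and mt-Cytb when scaled to the mitochondrial total, for mt-Nd2 with library size alone, and for mt-Nd2, mt-Ts1, mt-Atp8 and mt-Co3 without a filter. With libraries left out it appeared for mt-Nd2 and mt-Co3 (wild-type replicate 2), mt-Nd1, mt-Nd2 and mt-Nd6 (mutant replicate 1), mt-Rnr1 (mutant replicate 2) and mt-Nd1 (mutant replicate 1 and wild-type replicate 3). The shares of all genes with such a p are not given for these alternatives. Over all genes, 325 were called with DESeq2, 527 without a filter and 32 with the replicate block, against 55 as reported. Leaving out a library gave 16 to 67: 23 without wild-type replicate 1, 16 without wild-type replicate 2, 26 without mutant replicate 1 and 18 without mutant replicate 2. Etv6 passed with DESeq2 (log2 fold change -0.31) and without a filter (-0.30). Replicate numbers are shared by label only: deviations of same-numbered libraries correlated at -0.035, -0.066 and -0.15, and the block called 0 mitochondrial genes. The tRNA median was -0.0022 without a filter and -0.68 to 0.027 with a library left out, and the rRNA median 0.016 scaled to the mitochondrial total. With a library left out, the protein median ran from -0.13 to -0.048, the rRNA median from 0.061 to 0.15 and the median of the nuclear respiratory subunits, an alternative added after seeing the data, from 0.018 to 0.19. Without nuclear rRNA in the total, rRNA shares were 19.9% and 20.9% and protein shares 1.73% and 1.62% in wild type and mutant, and the protein shares then overlapped between the genotypes. With copies added the protein shares were 2.39% and 2.26%, and the ratio 7.76 and 8.59.

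Signs turned only among values that passed no threshold. With limma-voom, mt-Nd3 read 0.0090 and Gm28438 0.00090; with library size alone, Gm10925 read -0.032 and Gm28437 -0.0048. With both mutant replicate 1 and wild-type replicate 3 left out, mt-Te read 0.27, mt-Nd4l -0.053, Tfam 0.013, Tefm -0.0027 and Gm28437 -0.028. Scaled to the mitochondrial total, mt-Nd4l read -0.045, and to the protein total mt-Co1 0.021, mt-Nd3 0.059 and mt-Te 0.0026. With copies added mt-Co3 read 0.033. With a library left out, the ranges of log2 fold changes that included 0 were mt-Co3 -1.42 to 0.33, mt-Te -0.62 to 0.26, mt-Nd4l -0.13 to 0.13, mt-Nd3 -0.14 to 0.063, mt-Nd5 -0.13 to 0.00034, Gm10925 -0.028 to 0.037, Gm28438 -0.12 to 0.059, Tfam -0.055 to 0.00052, Gm13340 -0.017 to 0.13, Gm28661 -0.0036 to 0.073 and Gm28437 -0.034 to 0.094. The cause of these changes was not tested.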

Other observations

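Of the 12 more diverged nuclear copies, 3 averaged at least 10 CPM. Gm13340 (chr2:22588103-22589647, minus strand, 97.6% identical to mt-Co1) measured 275 ± 14.3 CPM over wild-type libraries and 290 ± 31.6 CPM over mutant libraries (SD, n = 3 each). Gm13341 (95.9% identical to mt-Co2) measured 98.4 ± 6.48 and 115 ± 22.0 CPM, and its entry thus held more counts than that of mt-Co2 itself in every library. Gm20594, annotated as protein coding and 88.4% identical to part of mt-Rnr2, averaged 32.6 CPM. None of these 3 was called by edgeR.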
